A study of Mus musculus with 21 samples.

Results

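The genes described here are the conjugation enzymes of mouse liver: the UDP-glucuronosyltransferases (Ugt), the sulfotransferases (Sult) and the glutathione transferases (Gst, with the membrane-bound Mgst). Members were the protein-coding genes whose symbols begin with Ugt1a, Ugt2a, Ugt2b or Ugt3a, with Sult and a number, with Mgst and a number, or with one of the Gst classes a, k, m, o, p, t and z. The count table of 52636 gene identifiers held 67 such genes, of which 21 were Ugt, 21 Sult and 25 Gst or Mgst. Liver RNA was sequenced from wild type mice in 3 groups, which were 8 libraries after 8 weeks of CDA-HFD, 8 libraries after 16 weeks of CDA-HFD and 5 libraries after 8 weeks of normal chow, a group the submitters name week 0. CDA-HFD is the usual short name of a choline-deficient, amino acid-defined, high-fat diet, which the series title links to steatohepatitis with fibrosis. All groups were wild type, with no transgene or deletion, and no strain, sex or age is stated for them. The diets differ in more than 1 component, and the chow group matches the 8-week group in weeks on diet but has no partner at 16 weeks, so 16 weeks of feeding and the added time cannot be told apart.

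Conjugation is the step in which the liver joins a polar group to drugs, hormones, bile acids and other lipophilic compounds, so that they can leave in bile or urine. Ugt enzymes sit in the endoplasmic reticulum and transfer glucuronic acid from UDP-glucuronic acid. Cytosolic Sult enzymes transfer sulfate from the donor PAPS, and Gst enzymes join glutathione to reactive electrophiles. Many of these genes lie in tandem clusters of close copies, and their transcription in liver is known to depend on hepatocyte factors and on sensors of foreign compounds, among them the nuclear receptors PXR and CAR, the Ah receptor and NRF2.

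Library totals were 29037525 to 45868842 counts at 8 weeks of CDA-HFD, 35254088 to 48901145 at 16 weeks and 33522456 to 42586342 on chow. Levels are given as CPM, each library's counts scaled to a common total after TMM scaling, where TMM is a factor per library that centres most genes. The liver label fitted the markers, with a summed level of 7 hepatocyte genes of 98366 to 340750 CPM at 8 weeks, 74272 to 106455 CPM at 16 weeks and 109664 to 153939 CPM on chow. Of these 7 genes, 1 passed the test as higher and 4 as lower at 8 weeks, and 0 and 5 at 16 weeks. Alb, the most abundant of them, passed at neither time, so the sum does not show the fall of most of these genes. In whole liver, fewer cells of a type and less RNA per cell cannot be told apart. The summed level of 7 macrophage genes was 1354 to 6786 CPM at 8 weeks and 2695 to 4718 CPM at 16 weeks, against 294 to 403 CPM on chow. That of 6 bile duct genes was 94.9 to 483 CPM, 453 to 1519 CPM and 50.8 to 84.8 CPM in the same groups. All 7 macrophage genes passed the test as higher at both times, and 5 and 6 of the 6 bile duct genes did so at 8 and 16 weeks. The 5 periportal hepatocyte genes were lower at both times, with sums of 668 to 4479 CPM at 8 weeks and 1284 to 2324 CPM at 16 weeks against 6994 to 9667 CPM on chow. Of 6 pericentral hepatocyte genes, 2 passed as higher and 0 as lower at each time. Their sums overlapped, at 2356 to 13221 CPM at 8 weeks and 2647 to 8965 CPM at 16 weeks against 6836 to 8561 CPM on chow. The 7 stellate and myofibroblast genes summed to 724 to 1707 CPM and 1395 to 2063 CPM against 278 to 407 CPM. The part of these shifts in the results below was not tested. At 8 weeks, replicate 3 stood apart: its correlation of log levels with the other 7 libraries was 0.829 to 0.898, against 0.963 to 0.995 among those 7. Its TMM factor was 0.495, and it held 1498 CPM of squamous epithelium genes against 2.57 to 268 CPM in the others. Its 6 skeletal muscle genes summed to 2183 CPM, against 0.766 to 273 CPM in the others. Results are therefore given with it, and without it where that matters. Replicates 4 and 5 held 7641 and 334 CPM of 7 exocrine pancreas genes, against 0.290 to 2.26 CPM on chow. All 7 pancreas genes passed the test as higher at 8 weeks. Squamous genes also stood at 268 CPM in 8-week replicate 6 and at 234, 73.1 and 144 CPM in 16-week replicates 1, 4 and 7. These libraries and 8-week replicate 3 are the 5 libraries with squamous transcripts named below. The same 3 libraries at 16 weeks held 321, 317 and 182.5 CPM of skeletal muscle genes, and chow replicate 5 held 303 CPM. The labels give each library a number but do not say whether libraries of a group came from separate mice, so p-values measure the spread between these libraries.

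The promoters of 3 neighbouring Ugt2b genes are printed first because one of these genes, Ugt2b38, had the largest fall of all members while its close copies fell less. Each sequence runs 5′ to 3′ over 300 bases, 250 before and 50 after the transcription start, from RefSeq on GRCm38.p6. All 3 genes lie on the minus strand of chromosome 5, at chr5:87424154-87424453 for Ugt2b38, chr5:87254739-87255038 for Ugt2b37 and chr5:87140291-87140590 for Ugt2b5. Capitals mark, for Ugt2b38, the bases unmatched in both other promoters and, for Ugt2b37 and Ugt2b5, the bases unmatched in the Ugt2b38 promoter, including ends that the aligned window does not reach.
Ugt2b38: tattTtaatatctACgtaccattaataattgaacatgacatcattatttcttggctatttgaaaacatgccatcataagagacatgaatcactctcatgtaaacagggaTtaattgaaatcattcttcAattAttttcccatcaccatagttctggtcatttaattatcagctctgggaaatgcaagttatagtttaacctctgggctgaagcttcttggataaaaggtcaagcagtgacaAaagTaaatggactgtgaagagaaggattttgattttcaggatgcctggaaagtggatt
Ugt2b37: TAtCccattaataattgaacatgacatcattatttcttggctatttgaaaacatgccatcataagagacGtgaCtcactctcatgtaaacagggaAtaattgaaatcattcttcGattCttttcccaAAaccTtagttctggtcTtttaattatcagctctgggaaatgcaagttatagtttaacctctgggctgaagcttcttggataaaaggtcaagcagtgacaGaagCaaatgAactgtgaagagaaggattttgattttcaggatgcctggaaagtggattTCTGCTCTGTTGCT
Ugt2b5: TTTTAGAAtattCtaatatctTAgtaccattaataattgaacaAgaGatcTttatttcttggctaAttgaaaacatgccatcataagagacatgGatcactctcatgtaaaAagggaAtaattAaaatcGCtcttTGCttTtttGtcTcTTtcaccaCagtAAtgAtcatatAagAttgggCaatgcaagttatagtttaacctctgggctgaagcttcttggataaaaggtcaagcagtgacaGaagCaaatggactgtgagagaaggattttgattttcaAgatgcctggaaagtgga
The Ugt2b38 window was 94.8% identical to that of Ugt2b37 over 286 aligned bases and 90.0% identical to that of Ugt2b5 over 290, with 8 bases in Ugt2b38 that neither other window matched. The promoter of Ugt2b1, another strongly lowered member of the cluster, was 56.3% identical over 263 aligned bases.

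Sult1e1, which had the largest rise, and Ugt2a3, which fell, lie in the same stretch of chromosome 5 on the minus strand, at chr5:87591562-87591861 and chr5:87337146-87337445 for the windows shown. Capitals in Ugt2a3 mark matches to GTTAAT, a half-site of the hepatocyte factor HNF1. The Sult1e1 window has no capitals because it held none of the 4 motifs searched.
Sult1e1: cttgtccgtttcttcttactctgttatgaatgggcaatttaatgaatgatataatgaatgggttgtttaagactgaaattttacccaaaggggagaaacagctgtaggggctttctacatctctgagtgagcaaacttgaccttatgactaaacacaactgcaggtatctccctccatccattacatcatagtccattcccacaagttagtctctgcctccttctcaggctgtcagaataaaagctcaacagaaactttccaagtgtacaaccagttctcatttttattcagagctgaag
Ugt2a3: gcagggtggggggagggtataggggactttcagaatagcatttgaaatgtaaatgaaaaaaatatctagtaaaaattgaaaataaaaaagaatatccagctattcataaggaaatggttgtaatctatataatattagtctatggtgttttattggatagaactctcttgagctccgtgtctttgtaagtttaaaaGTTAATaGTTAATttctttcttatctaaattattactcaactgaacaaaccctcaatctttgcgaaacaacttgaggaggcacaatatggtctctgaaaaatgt
A promoter was found for 59 of the 67 members, with 71 windows among them. On both strands, GTTAAT stood in 19.7% of those windows and in 7.10% of all 32851 promoters of the same length. The 14 members with it were Ugt2a3, Ugt1a1, Ugt1a9, Ugt1a10, Ugt3a1, Sult1a1, Sult1d1, Gsta3, Sult2a3 to Sult2a6, Sult3a2 and Ugt1a6a. Of these, Sult2a3 to Sult2a6, Sult3a2 and Ugt1a6a were too scarce to be tested. No Ugt2b gene was among the 14. The antioxidant response element TGACNNNGC, which NRF2 binds, stood in 5.63% of the members' windows against 12.4% of all, and the Ah receptor's core GCGTG in 19.7% against 32.4%. The STAT5 site TTCNNNGAA stood in 8.45% against 8.30%. A match of letters is a description and not a site in use.

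Summed over each family, transcripts of conjugation enzymes were lower in both CDA-HFD groups than on chow. The sums carry the TMM factors, which were 0.495 to 1.17 at 8 weeks, 1.15 to 1.3 at 16 weeks and 0.811 to 0.879 on chow. A higher factor lowers a library's CPM, so the sizes of these falls depend on the scaling. Sums without TMM were not computed. The 21 Ugt genes summed to 2555 ± 539 CPM at 8 weeks (SD, n = 8) and 2112 ± 382 CPM at 16 weeks (SD, n = 8), against 5878 ± 462 CPM on chow (SD, n = 5), which is 43.5% and 35.9% of the chow mean. No library of either CDA-HFD group reached the lowest chow library. The 21 Sult genes summed to 820 ± 213 CPM and 551 ± 184 CPM, against 1298 ± 99.6 CPM on chow. The 25 Gst and Mgst genes summed to 7650 ± 2657 CPM and 5675 ± 1139 CPM, against 11715 ± 1061 CPM on chow. For each of these sums a single 8-week library was not below chow. For the Sult sum replicate 5, at 1234 CPM, lay within the chow range of 1199 to 1459 CPM. For the Gst sum replicate 3, at 13258 CPM, lay above the highest chow library, at 13034 CPM.

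**Figure D1:**
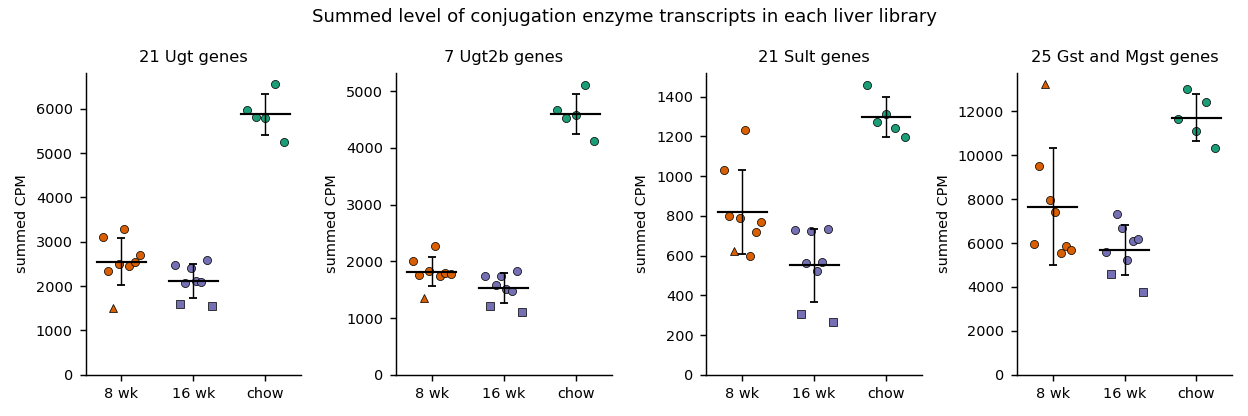
Summed CPM of the 21 Ugt, 7 Ugt2b, 21 Sult and 25 Gst and Mgst genes in each library after 8 weeks of CDA-HFD, 16 weeks of CDA-HFD and on chow; lines are means and bars SD, the triangle is 8-week replicate 3 and squares are 16-week replicates 2 and 8. All 16 CDA-HFD libraries sit below all 5 chow libraries for Ugt (highest 3280 against lowest 5257 CPM), whereas the triangle reaches 13258 CPM for Gst and Mgst.

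Of the 67 members, 51 passed the filter on low counts and were tested: 17 Ugt, 10 Sult and 24 Gst or Mgst. A gene was called at an adjusted p under 0.05 in edgeR's quasi-likelihood test over all 17104 genes. At 8 weeks against chow, 9 members were called higher, where 30.8% of all genes were, and 22 lower, where 20.5% of all genes were (51.3% in either direction). The members' median log2 change was -0.33 and that of all genes 0.16. At 16 weeks against chow, 8 members were called higher, against 29.4% of all genes, and 26 lower, against 22.5% of all genes (51.9% in either direction). Medians were -0.89 for members and 0.03 for all genes. Both comparisons use the same 5 chow libraries, so they are not independent. By family, the 8-week counts were 0 higher and 13 lower of 17 for Ugt, 3 higher and 2 lower of 10 for Sult, and 6 higher and 7 lower of 24 for Gst and Mgst. At 16 weeks they were 1 and 14 for Ugt, 4 and 3 for Sult, and 3 and 9 for Gst and Mgst. Without 8-week replicate 3, the counts were 9 higher and 26 lower at 8 weeks, against 31.5% and 25.8% of all genes. They were 11 higher and 32 lower at 16 weeks, against 34.9% and 31.4% of all genes. The members' medians were then -0.51 and -0.89, beside 0.07 and 0.02 for all genes.

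The scaling mattered for the 16-week counts. With total counts alone in place of TMM the median of all genes moved by 0.12 and 0.53 on the log2 scale at 8 and 16 weeks. The share of calls that were higher was then 78.3% and 89.5%, against 60.1% and 56.6% with TMM. The member counts were then 9 higher and 20 lower at 8 weeks, against 35.2% and 9.76% of all genes, and 14 higher and 17 lower at 16 weeks, against 49.4% and 5.76% of all genes. The members' medians were -0.20 and -0.36, beside 0.28 and 0.56 for all genes. The Ugt family kept 12 lower calls at each time under that scaling, with median log2 changes of -1.03 and -0.88, whereas Gst and Mgst had 8 higher and 3 lower at 16 weeks and a median of 0.15, the opposite sign to the TMM median of -0.38, and the Sult median of -0.16 turned to 0.37.

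**Figure D2:**
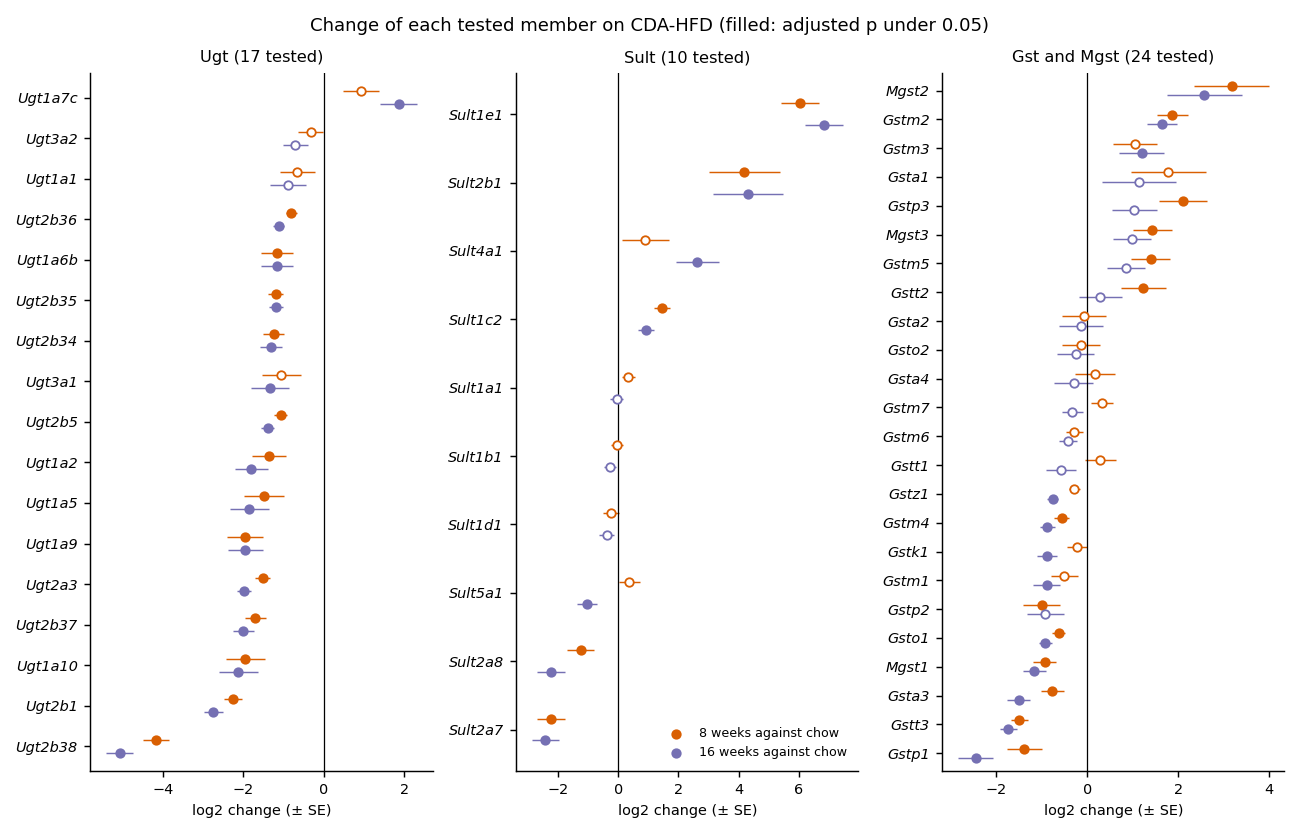
Log2 change of each of the 51 tested members after 8 weeks (orange) and 16 weeks (violet) of CDA-HFD against chow, with SE; filled points have an adjusted p under 0.05 in edgeR and open points do not. The 17 Ugt genes lie left of 0 except Ugt1a7c, with Ugt2b38 farthest left at -4.18 and -5.08, while Sult1e1 lies farthest right at 6.04 and 6.84.

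All 7 Ugt2b genes fell at both times, and for each of them every CDA-HFD library lay below every chow library. Genes with no overlap and lower made up 14.8% of all genes at 8 weeks and 23.3% at 16 weeks. The 7 genes span 534 kb of chromosome 5, from 86889767 to 87424203 on GRCm38. Ugt2b enzymes glucuronidate steroids, bile acids and many drugs. Ugt2b38 ranged from 1.07 to 3.31 CPM (median 1.40) at 8 weeks and from 0.356 to 1.85 CPM (median 0.751) at 16 weeks, against 24.9, 22.5, 31.5, 40.8 and 28.8 CPM on chow. The highest 8-week library, replicate 5, was still far below the lowest chow library. The log2 change was -4.18 ± 0.33 (SE), an 18.1-fold lower level, at 8 weeks (edgeR adjusted p = 7.41e-09) and -5.08 ± 0.34, a 33.8-fold lower level, at 16 weeks (edgeR adjusted p = 6.23e-10). Counts behind these values were 455 and 385 over the 8 libraries of each CDA-HFD group and 4858 over the 5 chow libraries.

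Ugt2b1, the most abundant Ugt on chow in CPM, ranged from 153 to 424 CPM (median 290) at 8 weeks and from 127 to 304 CPM (median 175) at 16 weeks, against 1666, 1183, 1356, 1539 and 1176 CPM on chow. Its level was 4.80-fold lower at 8 weeks (log2 -2.26 ± 0.23, edgeR adjusted p = 1.67e-07) and 6.72-fold lower at 16 weeks (log2 -2.75 ± 0.24, edgeR adjusted p = 7.08e-09). Both CDA-HFD groups lay wholly below chow and overlapped each other, with the lowest 8-week value in replicate 3. Ugt2b5 was higher per length than Ugt2b1 on chow, at 564 against 538 CPM per kilobase of exon, and it fell less. Its range was 366 to 665 CPM (median 497) at 8 weeks and 267 to 507 CPM (median 397) at 16 weeks, against 985, 1114, 1052, 1162 and 928 CPM on chow. The log2 changes were -1.07 ± 0.16 (edgeR adjusted p = 1.30e-05) and -1.40 ± 0.16 (edgeR adjusted p = 2.31e-07). Ugt2b36 ranged from 368 to 604 CPM (median 470) and from 252 to 453 CPM (median 410), against 761, 884, 858, 860 and 755 CPM on chow. Its log2 changes of -0.81 and -1.12 were the smallest in the cluster at their time (edgeR adjusted p = 0.000118 and 1.58e-06).

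Ugt2b37, whose promoter is so close to that of Ugt2b38, was a low transcript in every group. It ranged from 1.03 to 2.01 CPM (median 1.68) at 8 weeks and from 0.804 to 1.85 CPM (median 1.24) at 16 weeks, against 2.46, 3.13, 7.39, 6.60 and 6.16 CPM on chow. The 2 lowest chow libraries, replicates 1 and 2, lay just above the CDA-HFD range. Its log2 changes were -1.70 ± 0.26 (edgeR adjusted p = 1.87e-05) and -2.0 ± 0.26 (edgeR adjusted p = 1.40e-06). Ugt2b34 and Ugt2b35 changed by -1.25 and -1.20 at 8 weeks and by -1.32 and -1.19 at 16 weeks. Reads of near-identical copies could have been split or dropped in counting: 41.7% of the 50-base words of Ugt2b5 transcripts, 37.4% of those of Ugt2b38 and 18.3% of those of Ugt2b37 occurred in another gene, mostly in each other, against 0% for Ugt2b1 and 0.29% for Ugt2b36. The log2 changes of these 3 are uncertain to that extent. The cluster's fall held without 8-week replicate 3, at -4.18 for Ugt2b38 and -2.18 for Ugt2b1, and with total counts alone, at -4.05 and -2.09 at 8 weeks and -4.57 and -2.23 at 16 weeks.

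**Figure D3:**
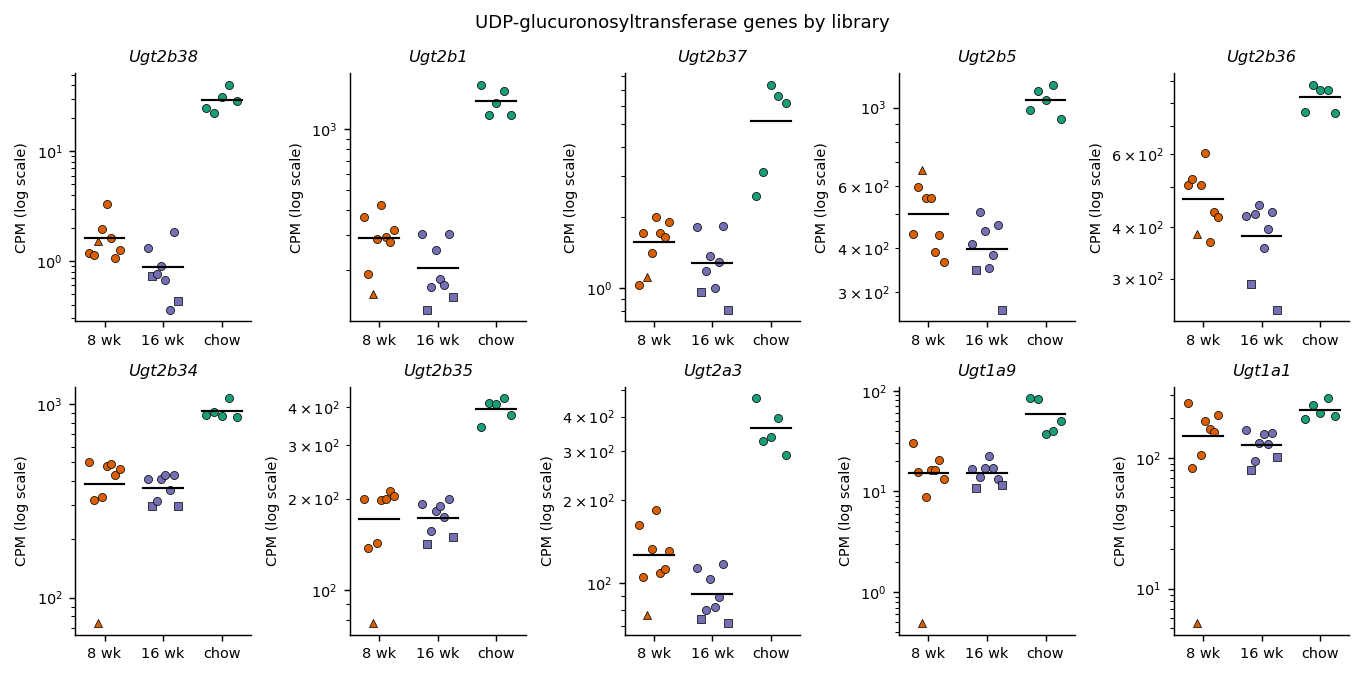
CPM (log scale) of 10 Ugt genes in each library after 8 weeks of CDA-HFD, 16 weeks of CDA-HFD and on chow; lines are means, the triangle is 8-week replicate 3 and squares are 16-week replicates 2 and 8. For Ugt2b38 all CDA-HFD points lie at or below 3.31 CPM and all chow points at or above 22.5 CPM; the triangle falls to 5.42 CPM for Ugt1a1.

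Ugt2a3, the only Ugt2a gene with more than 0 counts, ranged from 76.9 to 184 CPM (median 122) at 8 weeks and from 71.7 to 118 CPM (median 85.9) at 16 weeks, against 467, 326, 338, 395 and 290 CPM on chow. Neither CDA-HFD group overlapped chow. The log2 changes were -1.52 ± 0.18 (edgeR adjusted p = 9.46e-07) and -1.99 ± 0.18 (edgeR adjusted p = 1.43e-08). Ugt2a1 and Ugt2a2 had 0 counts in all 21 libraries.

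The 9 Ugt1a genes form a locus on chromosome 1, from 88055388 to 88220002, in which each gene has its own first exon and all share their last exons, so that 50.3% to 60.6% of each gene's exon bases overlap other Ugt1a genes. No source used here says how reads from shared exons were assigned. Ugt1a8 had 0 to 0.0356 CPM in any library, so such reads were not credited to every gene. Values of single Ugt1a genes are uncertain for that reason. Of the 7 tested, 5 were called lower at each time, with a median log2 change of -1.36 at 8 weeks and -1.80 at 16 weeks. Of all genes, 20.5% were called lower at 8 weeks and 22.5% at 16 weeks. With total counts alone, 4 of the 7 were lower at each time, against 9.76% and 5.76% of all genes. Ugt1a9, a phenol-conjugating form, ranged from 0.487 to 30.1 CPM (median 16.0) at 8 weeks and from 10.7 to 22.2 CPM (median 15.3) at 16 weeks, against 85.0, 83.6, 36.8, 40.1 and 49.7 CPM on chow. No CDA-HFD library reached the lowest chow library, and the log2 changes were -1.96 ± 0.44 (edgeR adjusted p = 0.00107) and -1.95 ± 0.44 (edgeR adjusted p = 0.000826). Ugt1a2, Ugt1a5, Ugt1a6b and Ugt1a10 were the other genes called lower, with log2 changes from -1.16 to -1.95 at 8 weeks and from -1.17 to -2.13 at 16 weeks. The Ugt1a6b call was lost with total counts alone at both times (edgeR adjusted p = 0.0979 and 0.231), without chow replicate 4 at 8 weeks, and without 16-week replicates 2 and 8 at 16 weeks (edgeR adjusted p = 0.0657).

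Ugt1a1, the enzyme that conjugates bilirubin, averaged 147 ± 80.7 CPM at 8 weeks and 125 ± 30.4 CPM at 16 weeks, against 233 ± 36.4 CPM on chow, and missed the threshold at both times (log2 -0.66 and -0.89, edgeR adjusted p = 0.214 and 0.0963). Replicate 3 had 5.42 CPM, and the other 7 libraries at 8 weeks ranged from 82.8 to 262 CPM. Without replicate 3 its log2 changes were -0.49 (edgeR adjusted p = 0.0681) and -0.90 (edgeR adjusted p = 0.00101), the second past the threshold. The whole Ugt1a locus summed to 7.51 CPM in replicate 3, against a group median of 222 CPM. Ugt1a7c was the one Ugt gene called higher, at 16 weeks, with 2.96 ± 0.547 CPM against 0.809 ± 0.273 CPM on chow (log2 1.86 ± 0.46, edgeR adjusted p = 0.00174). At 8 weeks it averaged 1.51 ± 0.908 CPM (log2 0.92, edgeR adjusted p = 0.0880), and without replicate 3, at 0 CPM, it was called higher there (log2 1.08, edgeR adjusted p = 0.00186). Of the Ugt3a genes, whose human forms use sugar donors other than glucuronic acid, Ugt3a1 was called lower at 16 weeks (log2 -1.34, edgeR adjusted p = 0.0238) and not at 8 weeks (log2 -1.06, edgeR adjusted p = 0.0690), where it was called without replicate 3 (log2 -0.89, edgeR adjusted p = 0.00400). Its 16-week call was lost with total counts alone (edgeR adjusted p = 0.185) and without 16-week replicates 2 and 8 (edgeR adjusted p = 0.0799). Ugt3a2 was called at neither, with log2 changes of -0.33 and -0.71 (edgeR adjusted p = 0.382 and 0.0569), and was called lower at 16 weeks without 8-week replicate 3 (log2 -0.72, edgeR adjusted p = 0.000487).

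Among the sulfotransferases, an almost silent gene rose and the dominant one fell. Sult1e1, the estrogen sulfotransferase, ranged from 6.81 to 19.4 CPM (median 10.2) at 8 weeks and from 3.17 to 30.6 CPM (median 24.6) at 16 weeks, against 0.221, 0.0860, 0.236, 0.116 and 0.192 CPM on chow. Every CDA-HFD library was above every chow library by more than 10-fold. Genes with no overlap and higher made up 15.3% of all genes at 8 weeks and 27.2% at 16 weeks. The log2 change was 6.04 ± 0.62, or 65.8-fold, at 8 weeks (edgeR adjusted p = 1.40e-07) and 6.84 ± 0.63, or 115-fold, at 16 weeks (edgeR adjusted p = 1.81e-08). The chow level rests on 27 counts over 5 libraries, against 3223 and 8350 counts in the CDA-HFD groups. Its neighbours Sult1b1 and Sult1d1, within the same 78.25 kb of chromosome 5, were not called. Their log2 changes were -0.04 and -0.25 at 8 weeks and -0.27 and -0.39 at 16 weeks (edgeR adjusted p from 0.228 to 0.875). Sult1d1, which sulfates catecholamines and other amines, ranged from 32.1 to 182 CPM (median 114) at 8 weeks and from 79.9 to 127 CPM (median 115) at 16 weeks, against 196, 104, 150, 102 and 146 CPM on chow, so that its groups overlapped. Sult1d1 was called lower at 16 weeks in 4 settings, among them without 8-week replicate 3 (log2 -0.39, edgeR adjusted p = 0.0499). For Sult1d1 and Sult1b1 the 16-week sign turned with total counts alone, at 0.14 and 0.26.

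Sult2a8, a bile acid sulfotransferase of mouse liver, was the most abundant Sult, with 70.8% of the family's summed CPM on chow, against 45.5% at 8 weeks and 31.3% at 16 weeks. It ranged from 142 to 708 CPM (median 369) at 8 weeks and from 27.0 to 356 CPM (median 174) at 16 weeks, against 845, 944, 977, 939 and 865 CPM on chow. Neither CDA-HFD group overlapped chow, but the spread within them was wide, with replicates 2 and 8 at 27.0 and 38.2 CPM at 16 weeks. Its log2 change was -1.24 ± 0.45 at 8 weeks (edgeR adjusted p = 0.0273) and -2.23 ± 0.46 at 16 weeks (edgeR adjusted p = 0.000323). The 8-week call was lost with total counts alone (log2 -1.08, edgeR adjusted p = 0.0591). Without 16-week replicates 2 and 8 the 16-week change was -1.87 (edgeR adjusted p = 6.24e-05). The scarce Sult2a7 also fell, to 0.164 ± 0.100 CPM and 0.149 ± 0.0968 CPM, against 0.804 ± 0.213 CPM on chow (edgeR adjusted p = 0.000484 and 0.000115).

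The phenol sulfotransferase Sult1a1 ranged from 176 to 376 CPM (median 247) at 8 weeks and from 125 to 242 CPM (median 197) at 16 weeks, against 367, 189, 150, 162 and 148 CPM on chow, and was called at neither time (log2 0.33 and -0.05, edgeR adjusted p = 0.216 and 0.871). The first chow library stood above the other 4. Without it Sult1a1 was called higher at 8 weeks (edgeR adjusted p = 0.0104) and its 16-week sign turned, and with total counts alone it was called higher at 16 weeks (log2 0.49, edgeR adjusted p = 0.0378). Sult1c2 ranged from 4.52 to 13.8 CPM (median 7.63) and from 3.42 to 7.01 CPM (median 5.87), against 4.56, 3.18, 2.496, 2.52 and 1.92 CPM on chow. The groups overlapped at their edges, and it was called higher at both times (log2 1.46 and 0.93, edgeR adjusted p = 0.000151 and 0.00492). Sult5a1 ranged from 8.62 to 26 CPM (median 15.6) at 8 weeks and from 1.70 to 12.4 CPM (median 5.62) at 16 weeks, against 11.6, 7.43, 15.2, 13.1 and 16.4 CPM on chow. The groups overlapped at both times, and it was called lower at 16 weeks alone (log2 0.37 at 8 weeks, edgeR adjusted p = 0.384; log2 -1.04 at 16 weeks, edgeR adjusted p = 0.0140). The 16-week call was lost with total counts alone (log2 -0.54, edgeR adjusted p = 0.146). On very few counts, Sult2b1, a cholesterol and steroid sulfotransferase, was called higher at both times, and Sult4a1 at 16 weeks alone (log2 0.90 and 2.63). Sult2b1 had 1.16 ± 2.47 CPM at 8 weeks and 1.15 ± 0.308 CPM at 16 weeks, against 0.0543 ± 0.0360 CPM on chow (edgeR adjusted p = 0.00616 and 0.00381). Its 8-week mean rests on replicate 3 at 7.23 CPM, the library richest in squamous epithelium genes. Without it the log2 change was 2.37 instead of 4.19 (edgeR adjusted p = 0.00763).

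**Figure D4:**
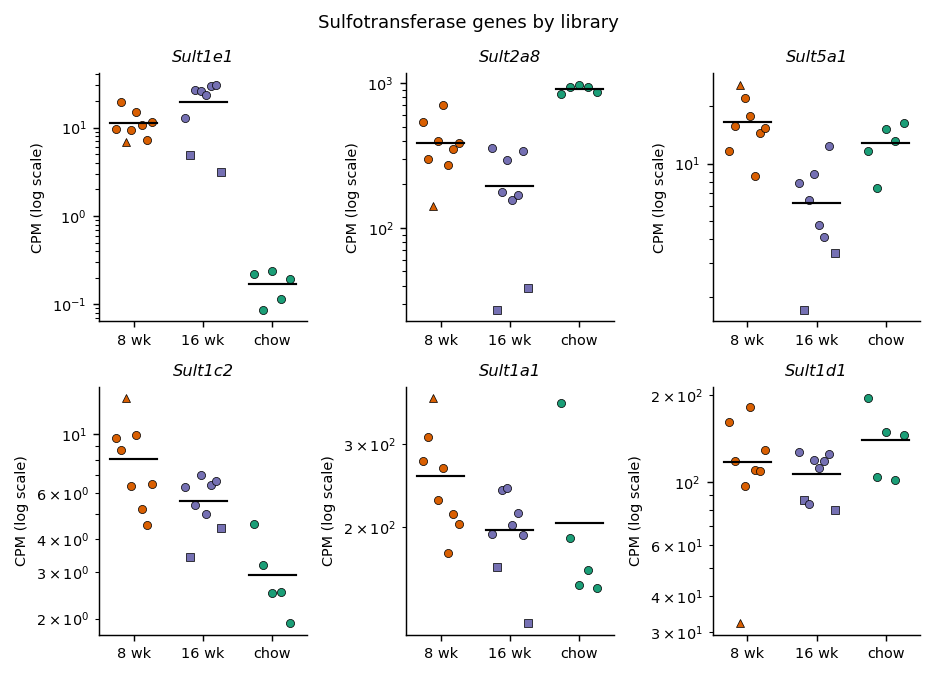
CPM (log scale) of 6 Sult genes in each library after 8 weeks of CDA-HFD, 16 weeks of CDA-HFD and on chow; lines are means, the triangle is 8-week replicate 3 and squares are 16-week replicates 2 and 8. Sult1e1 lies at 3.17 to 30.6 CPM in all CDA-HFD libraries and at or below 0.236 CPM on chow; the squares are the lowest 16-week points for Sult1e1, Sult2a8 and Sult5a1.

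Of the 24 glutathione transferases tested, 6 were called higher and 7 lower at 8 weeks and 3 and 9 at 16 weeks. Of all genes, 30.8% were higher and 20.5% lower at 8 weeks, and 29.4% and 22.5% at 16 weeks. In either direction these shares were 51.3% and 51.9%, so the family's number of calls was near that of genes in general. Mgst1, the main membrane-bound form, and the cytosolic Gstm1 and Gsta3 made 37.4%, 20.1% and 20.8% of the family's summed CPM on chow. Mgst1 ranged from 676 to 3256 CPM (median 2257) at 8 weeks and from 1244 to 2449 CPM (median 2060) at 16 weeks, against 3992, 4694, 4358, 4519 and 4238 CPM on chow. No CDA-HFD library reached the chow range (log2 -0.94 ± 0.25 and -1.17 ± 0.25, edgeR adjusted p = 0.00373 and 0.000454), although with total counts alone the 16-week call was lost (log2 -0.65, edgeR adjusted p = 0.0685). Gsta3, an alpha-class enzyme, ranged from 921 to 2910 CPM (median 1302) and from 475 to 1098 CPM (median 936), against 2517, 2608, 2428, 2347 and 2248 CPM on chow. At 8 weeks only replicate 3 was not below chow, and it lay above every chow library. The log2 changes of Gsta3 were -0.77 ± 0.25 (edgeR adjusted p = 0.0162) and -1.51 ± 0.25 (edgeR adjusted p = 3.71e-05). Gstm1, a mu-class enzyme, ranged from 999 to 4368 CPM (median 1188) and from 867 to 1720 CPM (median 1272), against 2441, 3043, 1914, 2900 and 1628 CPM on chow. It was called lower at 16 weeks (log2 -0.90 ± 0.30, edgeR adjusted p = 0.0157) and not at 8 weeks (log2 -0.51, edgeR adjusted p = 0.161), where the call appeared without replicate 3 (log2 -0.89, edgeR adjusted p = 0.000623). With total counts alone the 16-week call was lost (log2 -0.37, edgeR adjusted p = 0.143).

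Gstp1, the pi-class form, had the largest fall of the family at 16 weeks, while at 8 weeks that of Gstt3 was larger. Gstp1 ranged from 107 to 837 CPM (median 154) at 8 weeks and from 81.5 to 170 CPM (median 105) at 16 weeks, against 587, 644, 645, 695 and 554 CPM on chow. All CDA-HFD libraries were below chow except 8-week replicate 3, which was above every chow library. The log2 change was -1.39 ± 0.39 at 8 weeks (edgeR adjusted p = 0.00602), -2.03 without replicate 3 (edgeR adjusted p = 7.86e-08), and -2.46 ± 0.39 at 16 weeks (edgeR adjusted p = 2.17e-05). Of the 50-base words of Gstp1, 33.7% occurred in other genes, mostly in its neighbour Gstp2, so both are uncertain to that extent. Gstp2 had under 5 CPM in every library. Gstp3, the third gene of that cluster and with no shared words, went the other way. It ranged from 24.3 to 297 CPM (median 36.0) at 8 weeks and from 26.9 to 39.5 CPM (median 32.8) at 16 weeks, against 19.7, 15.6, 16.1, 14.7 and 15.2 CPM on chow. No library overlapped chow at either time. It was called higher at 8 weeks (log2 2.10 ± 0.52, edgeR adjusted p = 0.00229; 1.19 without replicate 3) and not at 16 weeks (log2 1.03 ± 0.49, edgeR adjusted p = 0.0860), where it was called without 8-week replicate 3 (log2 1.02, edgeR adjusted p = 9.05e-05). That library is in neither group of the 16-week test and enters it through the filter, scaling, spread and p adjustment that all groups share. Which of these mattered was not tested.

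Gstt3, of the theta class, ranged from 9.65 to 24.3 CPM (median 14.5) at 8 weeks and from 11.0 to 16.2 CPM (median 13.4) at 16 weeks, against 48.4, 47.2, 38.7, 49.99 and 41.8 CPM on chow. Neither CDA-HFD group overlapped chow (log2 -1.50 ± 0.19 and -1.74 ± 0.19, edgeR adjusted p = 2.16e-06 and 1.57e-07). Its neighbour Gstt1 ranged from 155 to 932 CPM (median 234) and from 117 to 203 CPM (median 172), against 231, 266, 237, 278 and 224 CPM on chow, and was called at neither time (log2 0.28 and -0.58, edgeR adjusted p = 0.489 and 0.151). Without replicate 3 the 8-week value was -0.24 (edgeR adjusted p = 0.178), and the 16-week fall was called (log2 -0.58, edgeR adjusted p = 0.00159), as it was in 3 other settings. Also lower at 16 weeks were Gsto1 (log2 -0.93), which reduces dehydroascorbate, Gstz1 (log2 -0.76), the maleylacetoacetate isomerase of tyrosine breakdown, Gstk1 (log2 -0.89) and Gstm4 (log2 -0.88), with edgeR adjusted p from 7.65e-06 to 0.00277. Of these, Gsto1 and Gstm4 were also called at 8 weeks, as were Gstk1 and Gstz1 without replicate 3 (edgeR adjusted p = 0.0381 and 0.0192). The 16-week calls of all 4 were lost with total counts alone, with log2 changes from -0.24 to -0.40.

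Within the Gstm cluster of 7 genes on chromosome 3, from 107895821 to 108044894, neighbours moved in opposite directions. At 16 weeks the calls in both directions depended on the scaling. With TMM 2 were higher and 2 lower, against 29.4% and 22.5% of all genes. With total counts alone 3 were higher and 0 lower, against 49.4% and 5.76% of all genes. Gstm2 ranged from 59.2 to 259 CPM (median 64.4) at 8 weeks and from 51.1 to 117 CPM (median 85.5) at 16 weeks, against 28.2, 27.9, 26.04, 28.9 and 25.1 CPM on chow. All CDA-HFD libraries were above all chow libraries, with log2 changes of 1.87 ± 0.34 (edgeR adjusted p = 0.000135) and 1.65 ± 0.33 (edgeR adjusted p = 0.000293), and 1.49 at 8 weeks without replicate 3. Gstm3 ranged from 52.2 to 637 CPM (median 132) and from 120 to 377 CPM (median 221), against 122.9, 130, 59.1, 111 and 60.2 CPM on chow. The groups overlapped, and its log2 changes of 1.05 ± 0.49 and 1.19 ± 0.50 fell on either side of the threshold (edgeR adjusted p = 0.0781 and 0.0497). The 16-week call of Gstm3 was lost in 17 of 31 alternative settings. Gstm5 was called higher at 8 weeks (log2 1.39, edgeR adjusted p = 0.0108; 0.71 without replicate 3) and not at 16 weeks (log2 0.84, edgeR adjusted p = 0.0984). At 16 weeks its libraries did not overlap chow, and it was called higher without 8-week replicate 3 (edgeR adjusted p = 0.000890), with total counts alone (log2 1.37, edgeR adjusted p = 0.000416) and in the 2 groups alone (edgeR adjusted p = 0.000222), while in the 2 groups alone its 8-week call was lost (edgeR adjusted p = 0.0508). Gstm4 fell by 0.57 on the log2 scale at 8 weeks (edgeR adjusted p = 0.00770), a call lost with total counts alone (log2 -0.43, edgeR adjusted p = 0.0888). Of the 50-base words of Gstm1, 18.9% occur elsewhere, mostly in the pseudogene Gstm2-ps1. That pseudogene had 108 ± 19.3 CPM at 8 weeks and 117 ± 20.1 CPM at 16 weeks, against 224 ± 57.6 CPM on chow.

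Mgst3, a membrane form whose human enzyme can make leukotriene C4, ranged from 17.2 to 132 CPM (median 24.3) at 8 weeks and from 22.6 to 49.8 CPM (median 28.7) at 16 weeks, against 18.3, 18.8, 12.1, 13.8 and 13.9 CPM on chow. It was called higher at 8 weeks (log2 1.43 ± 0.42, edgeR adjusted p = 0.00848; 0.89 without replicate 3) and not at 16 weeks (log2 0.98, edgeR adjusted p = 0.0547), although there all 8 libraries lay above chow. The 16-week rise of Mgst3 was called in 9 of 31 alternatives, among them the fit without 8-week replicate 3 (log2 0.97, edgeR adjusted p = 0.00388). Mgst2, with the same activity in humans, was higher at 0.442 ± 0.448 CPM and 0.268 ± 0.0978 CPM, against 0.0421 ± 0.0619 CPM on chow, where 7 counts were seen in all (edgeR adjusted p = 0.00340 and 0.0118). Gstt2 and Gstp2 were called at 8 weeks near the threshold, higher (log2 1.23, edgeR adjusted p = 0.0417) and lower (log2 -1.01, edgeR adjusted p = 0.0469). The Gstp2 call was lost in 21 of 31 alternatives, and the Gstt2 call was lost without replicate 3 (log2 0.40, edgeR adjusted p = 0.165). Of the named Gst and Mgst genes, 8 had their highest 8-week value in replicate 3.

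**Figure D5:**
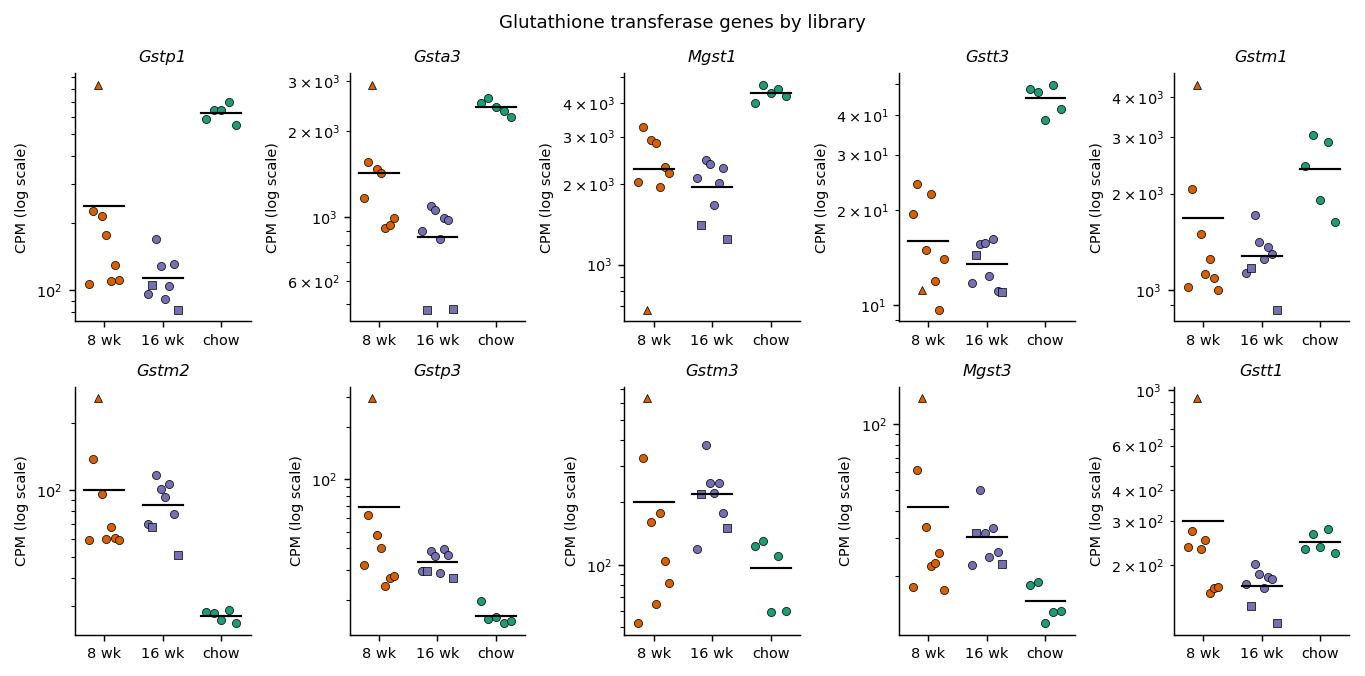
CPM (log scale) of 10 Gst and Mgst genes in each library after 8 weeks of CDA-HFD, 16 weeks of CDA-HFD and on chow; lines are means, the triangle is 8-week replicate 3 and squares are 16-week replicates 2 and 8. The triangle is the highest 8-week point in 8 panels, all but Mgst1 and Gstt3, and for Gstp1 (837 CPM) it lies above the chow points while the other 8-week points lie at 107 to 226 CPM.

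Between the CDA-HFD groups, 16 weeks against 8 weeks, 1 member was called higher, where 10.6% of all genes were, and 9 lower, where 11.0% of all genes were. The median log2 change was -0.30 for members and 0.00 for all genes, and the libraries of the 2 groups overlapped for every tested member, where 2.58% of all genes were without overlap and higher and 0.509% lower (3.09% in either direction). The largest fall was that of Sult5a1, which averaged 6.19 ± 3.43 CPM at 16 weeks (SD, n = 8) against 16.5 ± 5.56 CPM at 8 weeks (SD, n = 8; log2 -1.41 ± 0.31, edgeR adjusted p = 0.00370). It held with total counts alone (log2 -0.97, edgeR adjusted p = 0.0140). Sult4a1 was the 1 member called higher (log2 1.73, edgeR adjusted p = 0.0280), from 143 counts at 16 weeks against 27 at 8 weeks. Ugt2b38 (-0.90), Ugt2a3 (-0.47), Gstp1 (-1.08), Gstt1 (-0.86), Gsta3 (-0.74), Gstk1 (-0.66), Gstm7 (-0.65) and Gstz1 (-0.47) were called lower, with edgeR adjusted p from 0.00468 to 0.0420. With total counts alone the median of all genes between the times moved by 0.38, and 4450 of all genes were higher and 245 lower, against 1814 and 1889 with TMM. None of these 8 calls was kept under that scaling, and those of Gstp1 and Gstt1 were lost without 8-week replicate 3 (log2 -0.43 and -0.34, edgeR adjusted p = 0.0788 and 0.0671). In a fit of these 2 groups alone, 0 members were called higher and 2 lower. Sult1e1 (log2 0.80, edgeR adjusted p = 0.114) and Sult2a8 (log2 -0.99, edgeR adjusted p = 0.0831) did not pass, but Sult2a8 was called lower without 8-week replicate 3 (log2 -1.11, edgeR adjusted p = 0.0425), without the 5 libraries with squamous transcripts (log2 -1.97, edgeR adjusted p = 0.00171) and with DESeq2 (adjusted p = 0.0491).

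The 16-week group itself was uneven. In replicates 2 and 8, 24 of the 51 tested members had their lowest 2 values of the 8 libraries, or 47.1%, and none had its highest 2, while 8.23% of all genes had their lowest 2 there and 8.43% their highest 2. These libraries were singled out after their values were seen. Sult2a8 had 27.0 and 38.2 CPM in them against 157 to 356 CPM in the other 6, Sult1e1 4.84 and 3.17 CPM against 12.7 to 30.6 CPM, and Gsta3 475 and 478 CPM against 844 to 1098 CPM. Both the member that rose most and the one that dominates the Sult family were thus lowest in the same libraries. The 6 pericentral hepatocyte genes, of which Cyp2e1 was the most abundant, summed to 2647 and 2900 CPM in replicates 2 and 8 against 6576 to 8965 CPM in the other 6, and 5 periportal genes to 2240 and 2324 CPM against 1284 to 1843 CPM. The 7 general hepatocyte genes, at 91568 and 84108 CPM, lay within the range of the others, 74272 to 106455 CPM. The part of this difference in zonal markers in the members' levels was not tested. Without both libraries, 7 members were called higher and 23 lower at 16 weeks against chow, where 27.2% and 19.3% of all genes were. At 16 against 8 weeks the counts were then 1 higher and 2 lower, against 5.58% and 2.57% of all genes. Sult1e1 then passed between the times (log2 1.14, edgeR adjusted p = 0.00504).

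Genes that feed the 3 reactions were taken from short lists. Their counts stand beside 30.8% of all genes called higher and 20.5% lower at 8 weeks, and 29.4% and 22.5% at 16 weeks. Of 4 genes that supply UDP-glucuronic acid, 0 were called higher and 1 lower at 8 weeks and 0 and 2 at 16 weeks. Ugdh, which makes the donor, averaged 181 ± 42.4 CPM and 212 ± 20.98 CPM, against 333 ± 34.7 CPM on chow (log2 -0.88 and -0.65, edgeR adjusted p = 0.000145 and 0.00187). Of 6 genes of PAPS supply and its breakdown product, 1 was called higher and 3 lower at 8 weeks and 0 and 3 at 16 weeks. Papss2, the main PAPS synthase of liver, averaged 111 ± 44.5 CPM and 97.8 ± 20.5 CPM, against 294 ± 49.04 CPM on chow (log2 -1.40 and -1.59, edgeR adjusted p = 0.000192 and 3.17e-05), and Bpnt1, which clears the product PAP, fell by 0.84 and 1.01 on the log2 scale (edgeR adjusted p = 0.000248 and 2.21e-05). The median log2 changes were -0.18 and -0.40 for the first list and -0.52 and -0.25 for the second, beside 0.16 and 0.03 for all genes. The 16-week medians turned to 0.13 and 0.29 with total counts alone.

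Of 13 genes of glutathione synthesis and recycling, 7 were called higher and 5 lower at 8 weeks and 6 and 5 at 16 weeks, with medians of 1.10 and 0.83. For these and the lists that follow, 30.8% of all genes were higher and 20.5% lower at 8 weeks, and 29.4% and 22.5% at 16 weeks. Without 8-week replicate 3, 6 glutathione genes were higher and 5 lower at 8 weeks, with a median of 0.61. With total counts alone, 7 were higher and 2 lower at 8 weeks. The cystine carrier Slc7a11 averaged 5.71 ± 2.88 CPM and 5.94 ± 1.40 CPM, against 0.0629 ± 0.0626 CPM on chow (log2 6.47 and 6.52, edgeR adjusted p = 3.18e-08 and 1.10e-08). Gclc, the rate-limiting subunit of glutathione synthesis, averaged 375 ± 132 CPM and 370 ± 38.0 CPM, against 679 ± 118 CPM on chow (log2 -0.86 and -0.87, edgeR adjusted p = 0.0102 and 0.00766). Oplah, which returns 5-oxoproline to glutamate in the glutathione cycle, fell by 0.79 and 1.21 on the log2 scale (edgeR adjusted p = 7.00e-06 and 1.41e-08). At 16 weeks the dipeptidase Dpep1 was higher, at 6.01 ± 1.60 CPM against 1.33 ± 0.520 CPM on chow (log2 2.18, edgeR adjusted p = 0.000160). Of 4 hydrolases that can undo conjugates or act on esters, Gusb, the beta-glucuronidase of lysosomes, rose to 108 ± 51.4 CPM and 117 ± 21.6 CPM, against 50.1 ± 2.20 CPM on chow (log2 1.10 and 1.22, edgeR adjusted p = 0.000655 and 0.000174). The carboxylesterase Ces1d fell to 210 ± 32.8 CPM and 141 ± 20.5 CPM, against 1391 ± 257 CPM on chow (log2 -2.73 and -3.31, edgeR adjusted p = 5.26e-11 and 2.92e-12). The list counts were 2 higher and 2 lower at 8 weeks and 2 and 1 at 16 weeks. Of 6 exporters of conjugates, 1 was called higher and 4 lower at each time. Abcc1 was higher (log2 2.04 and 2.49, edgeR adjusted p = 1.85e-05 and 1.20e-06), while the canalicular Abcc2 (log2 -1.29 and -1.25, edgeR adjusted p = 0.000281 and 0.000260) and the basolateral Abcc3 (log2 -1.11 and -1.40, edgeR adjusted p = 1.79e-07 and 4.39e-09) were lower.

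Of 14 sensors and liver regulators, 0 were called higher and 7 lower at 8 weeks and 1 and 7 at 16 weeks, with medians of -0.42 and -0.65. Beside these and the lists that follow, 30.8% of all genes were higher and 20.5% lower at 8 weeks, and 29.4% and 22.5% at 16 weeks. The PXR gene Nr1i2 averaged 65.3 ± 20.1 CPM and 54.1 ± 4.32 CPM, against 90.5 ± 16.8 CPM on chow (log2 -0.47 and -0.74, edgeR adjusted p = 0.0195 and 0.000554). The CAR gene Nr1i3 passed at neither time (log2 0.69 and -0.37, edgeR adjusted p = 0.132 and 0.424), nor did Ahr (log2 0.11 and -0.10, edgeR adjusted p = 0.701 and 0.730). Nfe2l2, the NRF2 gene, was called higher at 16 weeks, with 135 ± 9.40 CPM against 86.0 ± 11.5 CPM on chow (log2 0.65, edgeR adjusted p = 0.0133), and averaged 109 ± 34.2 CPM at 8 weeks (log2 0.34, edgeR adjusted p = 0.171). Hnf4a was lower at both times, at 582 ± 108 CPM and 488 ± 82.9 CPM against 1122 ± 117 CPM on chow (log2 -0.95 and -1.20, edgeR adjusted p = 1.40e-05 and 3.70e-07). Ppara, the receptor for fatty acids, fell by 1.32 and 1.39 on the log2 scale (edgeR adjusted p = 0.00244 and 0.00124). The estrogen receptor gene Esr1 had 13.8 ± 3.21 CPM at 16 weeks against 40.9 ± 8.01 CPM on chow (log2 -1.57, edgeR adjusted p = 2.22e-06). Of 9 genes commonly read as reporters of these sensors, 3 were called higher and 2 lower at 8 weeks and 3 and 3 at 16 weeks, with medians of -0.28 and -0.20, of which the second turned to 0.33 with total counts alone. Cyp2b10, the usual CAR reporter, averaged 0.205 ± 0.145 CPM and 0.209 ± 0.230 CPM, against 24.6 ± 6.24 CPM on chow (log2 -6.88 and -6.84, edgeR adjusted p = 2.36e-08 and 6.54e-09). Cyp3a11, the usual PXR reporter, averaged 1768 ± 669 CPM and 1772 ± 334 CPM, against 7991 ± 1788 CPM on chow (log2 -2.18 and -2.17, edgeR adjusted p = 1.03e-06 and 5.16e-07). Among the 3 reporters called higher at each time were the NRF2 reporters Srxn1 (log2 1.31 and 1.25) and Hmox1 (log2 1.68 and 1.60). Their edgeR adjusted p ranged from 2.02e-06 to 0.000218. The list also holds the NRF2 reporters Nqo1 and Txnrd1, whose values are not given here, so Srxn1 and Hmox1 do not describe NRF2 reporters as a set. Of 10 other phase II enzymes, 0 were called higher and 5 lower at 8 weeks and 0 and 8 at 16 weeks, with medians of -0.41 and -0.85. The microsomal epoxide hydrolase gene Ephx1 fell by 0.96 at 8 weeks (edgeR adjusted p = 5.23e-06), and Ephx2, the soluble form, fell by 0.76 and 1.38 on the log2 scale (edgeR adjusted p = 0.000125 and 4.17e-08). With total counts alone, the 16-week counts of lower calls were 1 of 13 glutathione genes, 1 of 6 exporters, 4 of 14 sensors and 3 of 10 other phase II enzymes. Under that scaling 5.76% of all genes were called lower at 16 weeks.

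The 16 members that were not tested had at most 0.333 CPM in any library, and 5 of them had 0 counts throughout: Sult1c1, Sult2a6, Sult3a2, Ugt2a1 and Ugt2a2. Sult2a1 to Sult2a6, Sult3a1 and Sult3a2 were therefore at or near 0 in all groups. Sult2a2 had 39 counts over the 16-week libraries and 9 over the 8-week libraries, against 0 on chow.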

How the data were processed

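The authors deposited raw read counts per gene for 21 liver libraries, 1 column each, and the counts per sample deposited separately were equal to these columns. Per the labels' protocols, total RNA was made into stranded libraries with an Illumina TruSeq kit, and the submitters' processing notes name GRCm38 as build. For the aligner, the counting tool with its annotation and the strand setting, the sources used here name none. Reads of overlapping or near-identical genes may therefore have been split or dropped. Symbols and exon lengths came from GENCODE M21, which held 99.72% of the 52636 identifiers, and 7 pseudogenes that match the symbol rule were left out.

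Counts were filtered with filterByExpr, which left 17104 genes and 99.96% of counts, scaled by TMM and fitted with edgeR 4.0.16 (R 4.3.3) over all 21 libraries. The 3 contrasts were tested by quasi-likelihood with Benjamini-Hochberg adjustment over all genes tested, at a threshold of 0.05. The SE is that of the fitted log2 change. On simulated counts with the 8-week against chow design, 97% of 4-fold, 47.8% of 2-fold and 5.97% of 1.5-fold changes were called, with 6 false calls among 16906 genes. The simulated spread was set by a fixed rule on each gene's mean and not taken from these counts. No simulated library stood apart as 8-week replicate 3 did, so these rates need not hold for the real libraries. Library totals limit precision as given with the counts of scarce genes. The members and all gene lists were chosen with earlier results of these data known. Values in every library are given for the 3 members of each family highest per length on chow and, per comparison and family, for up to 3 called members with the largest rise and fall and at least 5 CPM in the higher group. Pathway genes are the 2 largest called changes in each direction per list, plus Nr1i2, Nr1i3, Ahr and Nfe2l2. Alternatives were other scalings, filters, DESeq2 1.42.0, fits of 2 groups alone, the 20 most abundant genes left out, and libraries left out singly or together. Leaving out 16-week replicates 2 and 8 was chosen after seeing the data. Sequence shared between genes was counted as 50-base words of their transcripts.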

Additional observations from a re-analysis of the deposited data

Results flagged for a closer look

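Groups of libraries were examined for the 23 members with values in every library. In 12 of 69, 1 library lay farther from the rest than Dixon's limit for its group size. For normal values that limit is passed in about 1 group in 20. That rate is no measure of chance here, because members share libraries and were named partly by the size of their changes. Of the 12, 8 were the 8-week replicate 3, always as the highest library: Gstm1 at 4368.4 CPM, Gsta3 at 2910.2 CPM, Gstt1 at 932.1 CPM, Gstp1 at 836.5 CPM, Gstm3 at 636.8 CPM, Gstp3 at 296.9 CPM, Gstm2 at 258.5 CPM and Mgst3 at 132.0 CPM. The others were Ugt2b38 in 8-week replicate 5 at 3.313 CPM, Mgst3 in 16-week replicate 3 at 49.8 CPM, Gstp3 in chow replicate 1 at 19.71 CPM and Sult1a1 in chow replicate 1 at 367.2 CPM.

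For 6 named members the change against chow at 16 weeks differed from that at 8 weeks in edgeR's test of 16 against 8 weeks, in which the shared chow libraries drop out. The difference in log2 change was -1.41 for Sult5a1, -1.08 for Gstp1, -0.90 for Ugt2b38, -0.86 for Gstt1, -0.74 for Gsta3 and -0.47 for Ugt2a3. Most of these calls were not stable. That of Gstt1 was lost in 16 alternative settings, that of Ugt2a3 in 15, those of Ugt2b38 and Gstp1 in 12 each and that of Gsta3 in 6. Total counts alone was among the settings for each of these.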

How the results depend on the processing

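At 8 weeks the member counts were 8 to 11 higher and 20 to 26 lower when each library was left out in turn, and at 16 weeks 7 to 11 higher and 26 to 32 lower. Those of all tested genes were then 4518 to 5502 higher and 3045 to 4386 lower at 8 weeks. At 16 weeks they were 4688 to 5953 higher and 3411 to 5355 lower. With total counts alone, all genes called at 16 weeks were 8449 higher and 986 lower, and members 14 and 17. At 8 weeks 1669 genes were lower. At 16 against 8 weeks the counts were 4450 and 245 for all genes and 3 and 1 for members. The 16-week changes of Sult1a1 and Sult1d1 turned to 0.49 and 0.14. In fits of the 2 groups alone, 3356 genes were higher at 8 weeks, 5850 lower at 16 weeks, and at 16 against 8 weeks 781 genes and 2 members lower and 0 members higher. A filter at a mean of 1 CPM left 5 members higher at 16 weeks and 0 at 16 against 8 weeks, since scarce genes are not tested. Without a filter 1082 genes and 5 members were lower at 16 against 8 weeks. DESeq2 gave 3 members higher there.

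The count at 16 against 8 weeks was the least stable. It was 0 to 3 members higher and 2 to 14 lower when single libraries were left out, with 1344 to 2527 of all genes higher and 904 to 2835 lower. The lowest lower counts came without 16-week replicate 8 and the highest without 8-week replicate 6. Without 8-week replicates 3, 4 and 5 it was 3 members and 922 genes lower. Without the 5 libraries with squamous transcripts, 4 members were higher, 17 lower and 2941 genes higher. Without 16-week replicates 2 and 8, 2 members were lower, 941 genes higher and 434 lower. The cause was not tested. Gstt1 at 8 weeks turned to -0.33 without replicates 3, 4 and 5 and to -0.17 without the 5 squamous libraries, with -0.24 to 0.38 for single libraries, of which -0.24 is without replicate 3. Sult1a1 at 16 weeks was -0.15 to 0.27 for single libraries, the highest without chow replicate 1, turned to 0.02 without 16-week replicate 8 and was 0.08 without 16-week replicates 2 and 8. Log2 changes against chow were followed under all alternatives for named members and for members called in that comparison. Those of 16 against 8 weeks were followed for the members called there, Sult1e1 and Sult2a8. Of these values, 2522 kept direction and side of the threshold, 148 lost a call and 36 gained one. The 8 that changed sign were those of Gstt1, Sult1a1 and Sult1d1 given here. Other changes were not counted, and some turned: the Ugt2b median of 16 against 8 weeks went from -0.30 to 0.08 with total counts alone.

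No paired analysis was possible because replicate numbers follow listing order and the labels link no library to one of another group. Chow levels of Sult1e1, Mgst2, Sult2b1 and Sult4a1 rest on 27, 7, 9 and 8 counts, and intervals for such counts would cover counting error only.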
